A study of Homo sapiens with 9 samples.

Results

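The genes described here are 36 chaperone genes of human cells: the cytosolic HSP70, HSP110 and HSP90 genes with their partner proteins, the cytosolic J-proteins, the subunits of the CCT chaperonin, the chaperones of mitochondria, 2 small heat-shock proteins and the heat-shock transcription factors HSF1 and HSF2. They are a list of gene names, set by no threshold on a measured value but chosen with earlier results of these data known. Their shares of called genes, set beside those of all genes, are therefore a description. All 36 were found among the 25370 gene symbols of the count table, and all 36 passed the filter on low counts, which left 15089 genes for testing. RNA was measured in OCI-Ly1, an established cell line from a diffuse large B-cell lymphoma (DLBCL), after 48 h with 500 nM JIB-04, with 150 nM JIB-04 or with the solvent DMSO. JIB-04 is a small molecule that inhibits histone demethylases of the Jumonji family. Each group had 3 libraries of total RNA depleted of ribosomal RNA, and the labels do not say whether these came from separate cultures, so the p-values below rest on the spread of these libraries alone and that spread may be technical. One cell line was studied, so no spread between lines or patients was measured.

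Chaperones bind proteins that are not yet folded or have lost their fold. HSP70 holds short exposed stretches of a client protein in a cycle driven by ATP, in which J-proteins deliver the client and speed up hydrolysis, and exchange factors of the HSP110 and BAG families release the nucleotide. HSP90 acts later, on kinases, receptors and other nearly folded clients, with co-chaperones that set its cycle. CCT is a closed ring chamber in which actin, tubulin and other proteins fold, and HSP60 with HSP10 forms a comparable chamber in the mitochondrial matrix. HSF1 is the main transcription factor of the heat-shock response and binds repeated units of the bases GAA and TTC, the heat-shock element, in the promoters of many of these genes.

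Libraries held between 28476845 counts (DMSO replicate 2) and 57198613 counts (500 nM replicate 1). The 6 B-cell markers examined were all detected, with summed levels of 1243 to 1299.7 CPM (counts scaled to a common library size) at 500 nM and 1474 to 1534 CPM with DMSO. Of the 7 germinal-centre markers, LMO2 and SERPINA9 were at or near 0 in all libraries, with at most 1.69 and 0.444 CPM. The 5 T-cell markers summed to 7.40 to 8.65 CPM at 500 nM and 19.4 to 21.7 CPM with DMSO, and CD3E was at 0.371 to 0.560 CPM throughout. Summed markers of NK, myeloid, erythroid, epithelial and fibroblast cells did not exceed 6.06 CPM in any library. Whether the lower sums of B-cell and T-cell markers at 500 nM have a part in the results below was not tested.

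The promoter sequences of 5 members are printed as examples of promoters that hold heat-shock units. At 500 nM HSPA8, HSP90AB1, HSP90AA1 and HSPD1 were lower than with DMSO, and HSPA1B was not called different. Whether these units have a part in the responses was not tested. Each sequence runs 5′ to 3′ on the strand of the gene and covers the 250 bases before the transcription start that RefSeq gives on GRCh38.p14, and the capitals mark runs of heat-shock units found by a search for GAANNTTC and TTCNNGAA. HSPA8 lies at chr11:123062137-123062386 on the minus strand, HSP90AB1 at chr6:44247693-44247942 on the plus strand, HSP90AA1 at chr14:102087045-102087294 on the minus strand, HSPD1 at chr2:197499841-197500090 on the minus strand, and HSPA1B at chr6:31827488-31827737 on the plus strand.
HSPA8: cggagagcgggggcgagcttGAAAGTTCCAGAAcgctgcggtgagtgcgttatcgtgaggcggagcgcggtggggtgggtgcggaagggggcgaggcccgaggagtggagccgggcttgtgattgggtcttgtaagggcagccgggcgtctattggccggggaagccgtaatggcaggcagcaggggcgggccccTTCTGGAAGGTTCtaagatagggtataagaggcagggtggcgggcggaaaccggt
HSP90AB1: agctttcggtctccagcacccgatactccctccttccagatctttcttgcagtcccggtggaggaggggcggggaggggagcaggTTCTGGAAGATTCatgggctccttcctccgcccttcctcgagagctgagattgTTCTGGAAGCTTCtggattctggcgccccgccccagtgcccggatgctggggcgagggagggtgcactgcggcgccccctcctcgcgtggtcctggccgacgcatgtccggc
HSP90AA1: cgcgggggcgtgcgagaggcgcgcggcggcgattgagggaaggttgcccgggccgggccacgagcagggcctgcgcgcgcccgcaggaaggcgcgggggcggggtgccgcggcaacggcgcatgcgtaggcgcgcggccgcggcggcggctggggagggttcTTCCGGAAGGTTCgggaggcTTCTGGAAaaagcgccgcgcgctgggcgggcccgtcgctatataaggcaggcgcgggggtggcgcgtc
HSPD1: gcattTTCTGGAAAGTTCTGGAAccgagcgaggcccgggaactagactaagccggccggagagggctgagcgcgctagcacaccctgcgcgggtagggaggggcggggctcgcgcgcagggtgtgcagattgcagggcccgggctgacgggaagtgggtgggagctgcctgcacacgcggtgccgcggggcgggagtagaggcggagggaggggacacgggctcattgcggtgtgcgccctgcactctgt
HSPA1B: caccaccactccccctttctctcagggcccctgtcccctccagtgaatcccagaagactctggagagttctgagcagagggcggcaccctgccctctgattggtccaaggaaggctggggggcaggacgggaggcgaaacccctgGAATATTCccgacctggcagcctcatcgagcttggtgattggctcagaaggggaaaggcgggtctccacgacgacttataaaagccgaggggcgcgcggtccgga

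HSPA8 held runs of 3 units that begin 230 and 55 bases before its start, HSP90AB1 held them at 165 and 112 bases, HSP90AA1 at 88 bases, and HSPD1 at 245 and 240 bases, where the runs overlap. HSPA1B held a single exact match, the pair GAATATTC, 105 bases before its start, and HSPA1A the same pair at 106 bases. The search took exact matches only, so units that depart from these patterns were not counted. The matches therefore do not rank the strength of the elements. The RefSeq table held 44 windows of 300 bases (250 before and 50 after a start) for 32 of the 36 members, and none was used for HSF1, HSPA14, HSPB11 and CCT6A. On both strands, 18 of the 44 member windows (40.9%) held GAANNTTC or TTCNNGAA, and 13.5% of the 35116 windows of all genes did. Runs of 3 units, which contain these pairs, were in 6 member windows (13.6%) and in 0.490% of all windows, and the 6 genes were HSPA8, HSP90AA1, HSP90AB1, HSPD1, DNAJA1 and DNAJB6. The NF-Y motif CCAAT was in 34.1% of member windows and 34.6% of all windows, the E-box CACGTG in 11.4% and 7.26%, and the ATF4 element TGATGCAA in 0 of the 44 and 0.866% of all. These matches describe the letters in the windows and do not show binding.

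After 48 h at 500 nM, most of the chaperone genes were lower than with DMSO. Of the 36 members, 26 (72.2%) fell, against 25.6% of all genes tested, and 6 (16.7%) rose, against 26.3% of all genes tested, by edgeR's quasi-likelihood test with an adjusted p under 0.05. HSPA1A, HSPA1B, BAG3 and DNAJB6 did not pass the test. The 3 libraries at 500 nM lay below all 3 DMSO libraries for 28 members and above them for 5, while 29% and 30.2% of all genes were separated in this way. The members' median log2 fold change was -0.51, with a range from -1.29 for HSPA8 to 0.63 for DNAJB4, and the median over all genes was 0.01.

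**Figure D1:**
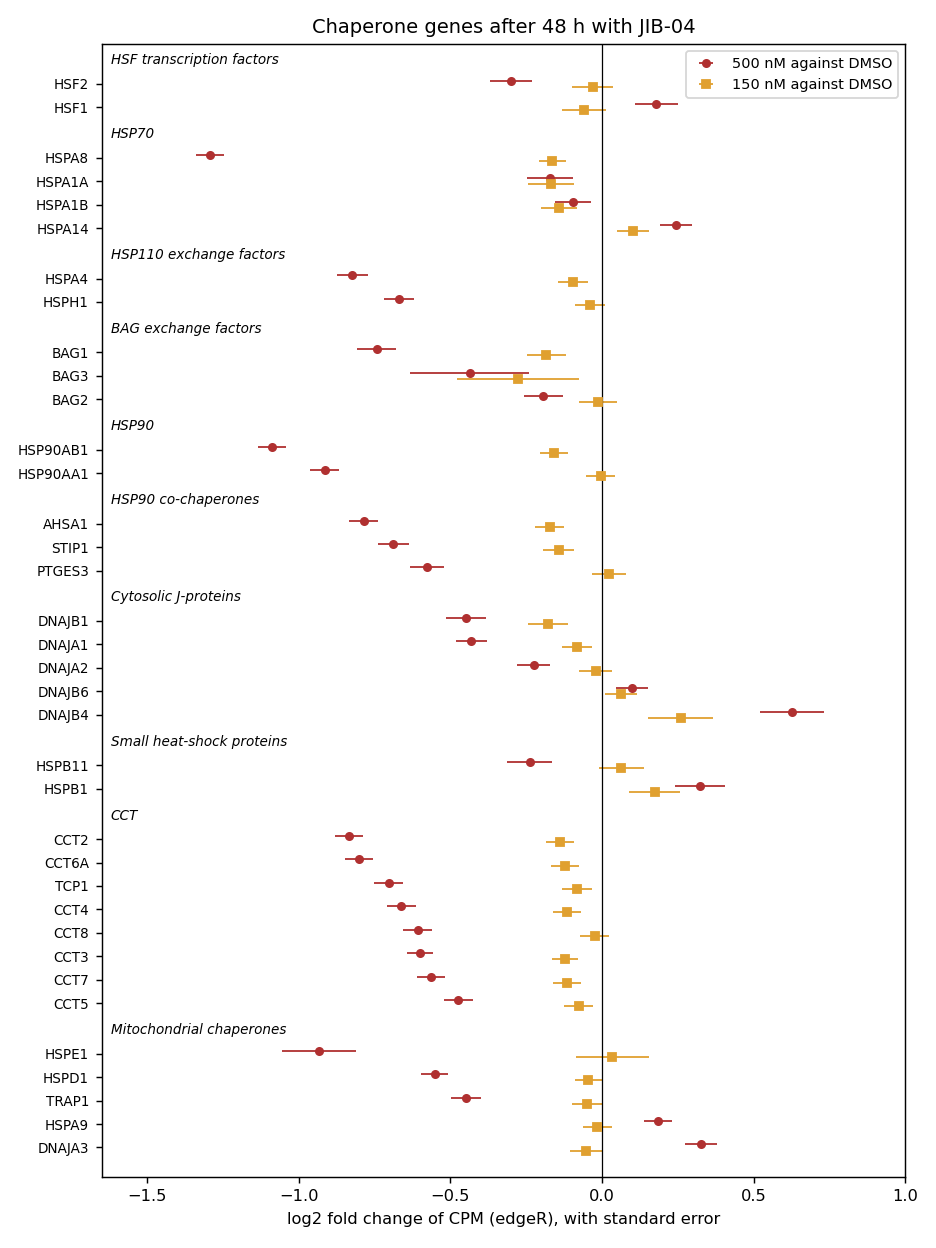
Log2 fold changes (x axis) of the 36 members at 500 nM (circles) and 150 nM (squares) against DMSO, grouped by role, with standard errors as bars. At 500 nM all 8 CCT genes and both HSP90 genes lie left of 0, HSPA8 lies farthest left at -1.29, and DNAJB4 farthest right at 0.63, while the values at 150 nM lie between -0.28 and 0.26.

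Counted together, the members took 1.30%, 1.27% and 1.28% of all counts in the libraries at 500 nM, against 1.85%, 1.91% and 1.86% with DMSO. The 8 HSP70, HSP110 and HSP90 genes made up the largest part of the gap, with 0.424%, 0.415% and 0.421% at 500 nM and 0.764%, 0.783% and 0.770% with DMSO. CCT took 0.402%, 0.395% and 0.403% at 500 nM and 0.568%, 0.592% and 0.564% with DMSO. The cytosolic J-proteins took 0.101%, 0.0975% and 0.0946% at 500 nM and 0.0998%, 0.107% and 0.105% with DMSO, so the groups overlapped. CPM values are shares of the RNA counted, so fewer cells of a type and less RNA per cell cannot be told apart here.

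The median log2 fold change of the 4 classes at 500 nM was -0.75 for HSP70, HSP110 and HSP90, -0.64 for CCT, -0.45 for the mitochondrial chaperones and -0.23 for the cytosolic J-proteins. CCT was the class with a single direction, since all 8 subunits fell. Among the 8 HSP70, HSP110 and HSP90 genes 5 fell and 1 rose, among the 5 J-proteins 3 fell and 1 rose, and among the 5 mitochondrial chaperones 3 fell and 2 rose. Of all genes tested 25.6% fell and 26.3% rose, and classes this small can depart from those shares by 1 or 2 genes. Differences between the class medians were not tested. Scaling by total counts moved the median of all genes to 0.15, and relative to that median the 4 classes stood at -0.76, -0.65, -0.46 and -0.24. A change of scaling shifts all genes alike, so these relative values are the same by construction. That scaling gave 5713 genes higher and 2515 lower, against 3975 higher and 3868 lower, and 7 members higher and 23 lower.

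The 2 transcription factors of the response differed in direction at 500 nM, and the call on HSF1 depended on single libraries. HSF1 had 76, 81.4 and 77.4 CPM at 500 nM, 70.6, 64.7 and 63.5 CPM at 150 nM, and 76, 70.3 and 61.1 CPM with DMSO. One DMSO library, replicate 1, lay as high as the lowest library at 500 nM, so the groups overlapped. HSF1 was 0.18 ± 0.07 higher at 500 nM on the log2 scale (adjusted p = 0.0378), but with the GC trend across genes removed its change was -0.02 (adjusted p = 0.736). The call was also lost without any 1 of the libraries at 500 nM (adjusted p = 0.0524, 0.141 and 0.0696), 150 nM replicate 2 (0.0532), DMSO replicate 2 (0.0663) or DMSO replicate 3 (a change of 0.09, adjusted p = 0.298), and with the length trend removed (0.16, adjusted p = 0.0583). HSF2, a relative of HSF1 that binds the same element, had 64.2, 58.9 and 62 CPM at 500 nM, against 69.9, 76.8 and 81.4 CPM with DMSO, and fell without overlap (log2 fold change -0.30 ± 0.07, adjusted p = 0.000553).

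Among the 4 HSP70 genes HSPA8 fell, HSPA14 rose, and HSPA1A and HSPA1B did not pass the test. HSPA8, the constitutive cytosolic HSP70 (HSC70), had 1238, 1187 and 1212 CPM at 500 nM, 2580.5, 2545 and 2835 CPM at 150 nM, and 2909, 3014 and 2998 CPM with DMSO. The 3 libraries at 500 nM lay far below the rest, at 40.8% of the DMSO mean (log2 fold change -1.29 ± 0.05, adjusted p = 3.83e-19). HSPA1A, a stress-inducible HSP70, had 52.2, 48.1 and 44.8 CPM at 500 nM, 51.9, 44.5 and 49 CPM at 150 nM, and 53.2, 57.9 and 52.5 CPM with DMSO. HSPA1B, its near-identical neighbour, had 88.6, 85.7 and 81.6 CPM at 500 nM, 85.5, 81.6 and 80.9 CPM at 150 nM, and 90.8, 95 and 88.1 CPM with DMSO. Neither passed the test, with log2 differences of -0.17 ± 0.08 (adjusted p = 0.0566) and -0.10 ± 0.06 (adjusted p = 0.177). HSPA1A at 500 nM lay below DMSO without overlap, and it passed the threshold with the GC trend removed (-0.26, adjusted p = 0.000664), and without 500 nM replicate 1 (-0.23, adjusted p = 0.027), 150 nM replicate 1 (adjusted p = 0.0304) or DMSO replicate 3 (adjusted p = 0.0455). It also passed with the length trend removed (adjusted p = 0.0432) and with only the 6 libraries compared (adjusted p = 0.0452), and HSPA1B passed with the GC trend removed (-0.17, adjusted p = 0.00306). Reads of these 2 genes cannot be assigned with certainty, nor can reads that HSPA8, HSP90AB1 or CCT genes share with processed pseudogenes.

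HSPA14, an HSP70 of the ribosome-associated complex, moved the other way, with 169, 165 and 164 CPM at 500 nM, 145, 155 and 152 CPM at 150 nM, and 138, 136 and 146 CPM with DMSO. The groups at 500 nM and with DMSO did not overlap, and the gene rose by 0.24 ± 0.05 (adjusted p = 0.000304). The exchange factors of the HSP110 family fell. HSPA4 had 255, 267 and 249.998 CPM at 500 nM, against 429, 473 and 466 CPM with DMSO, which left 56.5% of the DMSO mean (log2 fold change -0.82 ± 0.05, adjusted p = 8.75e-14). HSPH1 (HSP105) had 349.6, 338 and 348 CPM at 500 nM, against 533, 541 and 573 CPM with DMSO, which left 62.9% (log2 fold change -0.67 ± 0.05, adjusted p = 5.88e-12). Both were well separated from DMSO, and HSPH1 over HSPA4 was 1.37, 1.27 and 1.39 at 500 nM and 1.24, 1.14 and 1.23 with DMSO. That ratio did not overlap between the groups (log2 difference 0.15, two-sided exact permutation p = 0.1, adjusted p = 0.15 over 3 ratios), and 0.1 is the smallest p that 3 against 3 libraries allow.

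**Figure D2:**
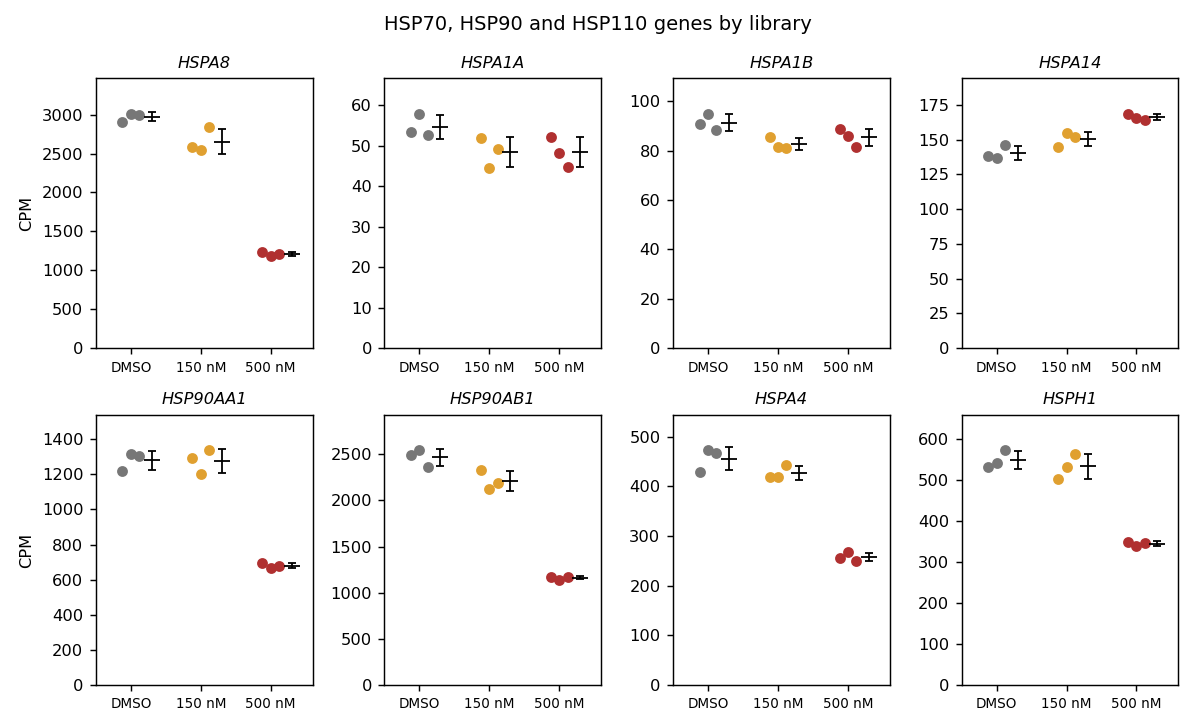
CPM (y axes, from 0) of the 8 HSP70, HSP90 and HSP110 genes in each library with DMSO, 150 nM and 500 nM JIB-04 (x axes), with points for libraries and bars for mean ± SD. HSPA8, HSP90AA1, HSP90AB1, HSPA4 and HSPH1 drop at 500 nM, HSPA1A and HSPA1B stay near their DMSO values, and HSPA14 is higher at 500 nM.

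Both cytosolic HSP90 genes fell. HSP90AA1, the inducible HSP90, had 693, 665 and 678 CPM at 500 nM, 1291, 1201 and 1337 CPM at 150 nM, and 1219, 1314 and 1307 CPM with DMSO. HSP90AB1, the constitutive one, had 1175, 1141 and 1165 CPM at 500 nM, 2327, 2122 and 2185 CPM at 150 nM, and 2497, 2544 and 2361 CPM with DMSO. At 500 nM they stood at 53% and 47.0% of the DMSO means (log2 fold changes -0.92 ± 0.05, adjusted p = 2.72e-15, and -1.09 ± 0.05, adjusted p = 1.67e-17). HSP90AA1 at 150 nM overlapped with DMSO, whereas HSP90AB1 at 150 nM lay below all DMSO libraries. HSP90AA1 over HSP90AB1 was 0.590, 0.583 and 0.582 at 500 nM and 0.488, 0.517 and 0.553 with DMSO (log2 difference 0.17, two-sided exact permutation p = 0.1, adjusted p = 0.15 over the 3 ratios).

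The 3 HSP90 co-chaperones among the members also fell. AHSA1, which stimulates the ATPase of HSP90, had 218, 221 and 215 CPM at 500 nM, 329, 326 and 347 CPM at 150 nM, and 379, 377 and 374 CPM with DMSO. STIP1 (HOP), which links HSP70 to HSP90, had 280.3, 286 and 270.2 CPM at 500 nM, against 448, 452 and 449 CPM with DMSO. PTGES3 (p23), which stabilises the closed form of HSP90, had 247, 237 and 247 CPM at 500 nM, against 346, 379 and 366 CPM with DMSO. None of the 3 overlapped between 500 nM and DMSO, and their log2 fold changes were -0.79 ± 0.05, adjusted p = 6.39e-14, for AHSA1, -0.69 ± 0.05, adjusted p = 5.88e-12, for STIP1 and -0.58 ± 0.06, adjusted p = 1.54e-09, for PTGES3.

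The J-proteins were mixed. DNAJB1, the main J-protein partner of inducible HSP70 (HSP40), had 83.2, 75.1 and 79.2 CPM at 500 nM, 101, 90.3 and 95.4 CPM at 150 nM, and 107, 118 and 98.9 CPM with DMSO. DNAJA1, a class A J-protein, had 403, 376 and 371 CPM at 500 nM, 476, 474 and 514 CPM at 150 nM, and 493, 536 and 521 CPM with DMSO. DNAJB4, a close relative of DNAJB1, had 26.2, 24.7 and 24.3 CPM at 500 nM, 15.9, 21.1 and 21.5 CPM at 150 nM, and 14.6, 15.9 and 18.2 CPM with DMSO. DNAJB1 and DNAJA1 were lower and DNAJB4 higher at 500 nM than in every DMSO library, and DNAJB4 stood at 154% of the DMSO mean. Their log2 fold changes were -0.45 ± 0.07, adjusted p = 2.18e-06, for DNAJB1, -0.43 ± 0.05, adjusted p = 4.22e-08, for DNAJA1 and 0.63 ± 0.11, adjusted p = 1.51e-05, for DNAJB4. DNAJA2, a second class A protein, had 152, 155 and 144 CPM at 500 nM, against 167, 181 and 179 CPM with DMSO, and fell by 0.23 ± 0.05 on the log2 scale (adjusted p = 0.00101). DNAJB6, known as a suppressor of protein aggregation, had 289.5, 286 and 266 CPM at 500 nM, against 245, 270.5 and 271 CPM with DMSO, with overlapping groups and a difference of 0.10 ± 0.05 (adjusted p = 0.12). Scaling by total counts ended the call on DNAJA2 (-0.09, adjusted p = 0.168) and made one on DNAJB6 (0.24, adjusted p = 0.000235).

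Of the BAG proteins, which release nucleotide and client from HSP70, 2 of 3 fell at 500 nM. BAG1 had 49.9, 49.1 and 48.8 CPM at 500 nM, 73.7, 69.7 and 74.5 CPM at 150 nM, and 87.6, 81.6 and 78.1 CPM with DMSO, and its libraries at 500 nM lay closely together below all others (log2 fold change -0.74 ± 0.06, adjusted p = 1.2e-10). BAG2 had 59.8, 59.5 and 63 CPM at 500 nM, against 69, 72 and 67.8 CPM with DMSO, a smaller gap without overlap (-0.19 ± 0.06, adjusted p = 0.0115). BAG3, the stress-inducible member, was the least abundant of the 36 genes, with 2.24, 2.17 and 2.67 CPM at 500 nM, against 2.9, 3.3 and 3.42 CPM with DMSO. Its groups did not overlap either, but the difference of -0.44 ± 0.20 missed the threshold (adjusted p = 0.0649) and passed it with the GC trend removed (-0.48, adjusted p = 0.0423). The BAG2 call was lost with scaling by total counts (-0.05, adjusted p = 0.478) and without DMSO replicate 2 (-0.17, adjusted p = 0.0513), and 42.7% of its exon bases overlap RAB23 on the other strand, whose reads cannot be told apart because no source used here gives the strand setting.

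**Figure D3:**
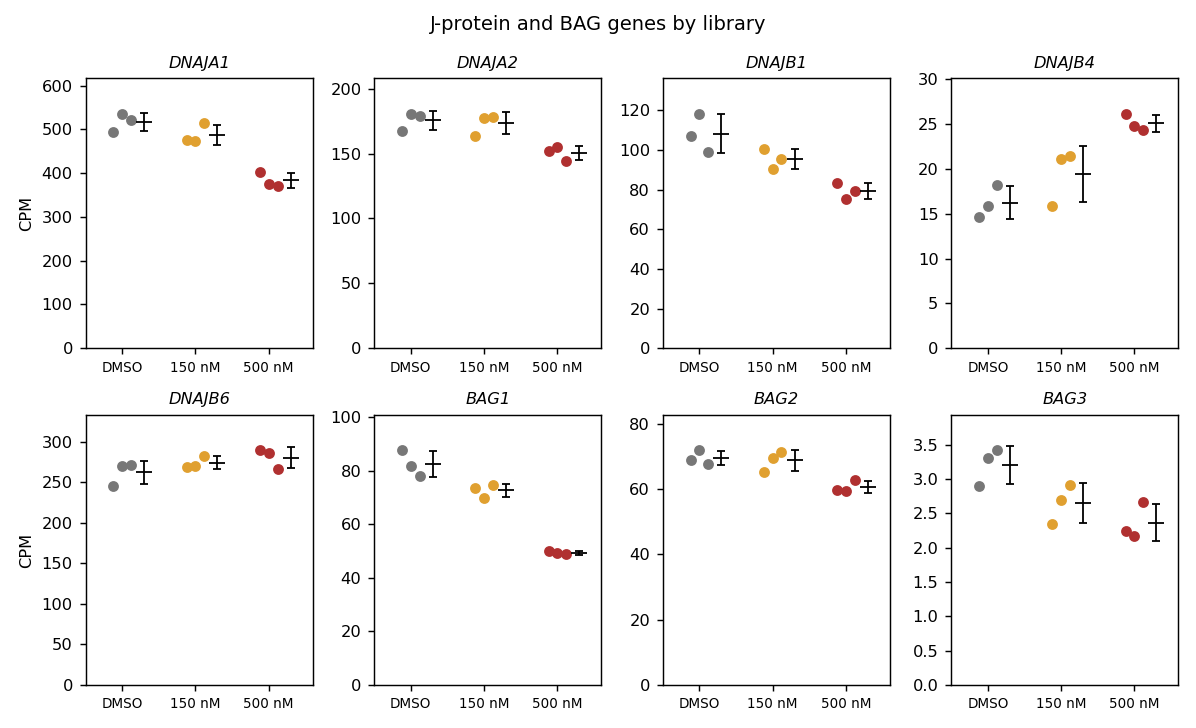
CPM (y axes, from 0) of the 5 cytosolic J-protein genes and the 3 BAG genes in each library with DMSO, 150 nM and 500 nM JIB-04 (x axes), with points for libraries and bars for mean ± SD. DNAJB4 is higher at 500 nM than in any DMSO library, DNAJB6 overlaps, and BAG1 has the widest gap to DMSO of the BAG genes.

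The 2 genes named as small heat-shock proteins went in opposite directions. HSPB1 (HSP27), which holds unfolded proteins without ATP, had 41.1, 43.6 and 39.1 CPM at 500 nM, against 36.8, 31 and 31 CPM with DMSO, and was higher without overlap (log2 fold change 0.32 ± 0.08, adjusted p = 0.00196), but with the GC trend removed the difference was 0.13 (adjusted p = 0.0869). HSPB11 (IFT25), which carries the name but serves intraflagellar transport, had 51.9, 51.8 and 55.7 CPM at 500 nM, against 58.1, 65.4 and 64.6 CPM with DMSO, and was lower without overlap (-0.24 ± 0.07, adjusted p = 0.00831). That call was lost with scaling by total counts (-0.10, adjusted p = 0.262) and with the length trend removed (-0.11, adjusted p = 0.249).

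All 8 subunits of CCT, the cytosolic chaperonin, fell at 500 nM, with log2 fold changes between -0.84 for CCT2 and -0.47 for CCT5, and in each of the 8 the libraries at 500 nM lay below all DMSO libraries. CCT2 had 444, 426 and 438 CPM at 500 nM, 700.1, 694 and 727 CPM at 150 nM, and 758, 818 and 758 CPM with DMSO. CCT5 had 442, 422 and 419 CPM at 500 nM, 544, 555 and 589.6 CPM at 150 nM, and 574, 618 and 590.3 CPM with DMSO. These are the subunits with the strongest and the weakest decline, at 56.1% and 72.0% of the DMSO means (log2 fold changes -0.84 ± 0.05, adjusted p = 1.13e-14, and -0.47 ± 0.05, adjusted p = 2.9e-09). CCT6A averaged 557 ± 16 CPM at 500 nM and 971 ± 43.7 CPM with DMSO (SD, n = 3 each), with a log2 fold change of -0.80 ± 0.05. TCP1, the first subunit named, averaged 449 ± 19.7 CPM at 500 nM and 732 ± 40 CPM with DMSO (log2 fold change -0.70 ± 0.05). CCT4 averaged 413 ± 4.43 CPM at 500 nM and 653 ± 30.1 CPM with DMSO (log2 fold change -0.66 ± 0.05). These 3 subunits fell by amounts between those of CCT2 and CCT5. CCT8 averaged 315 ± 6.9 CPM at 500 nM and 480.1 ± 14.3 CPM with DMSO (log2 fold change -0.61 ± 0.05). CCT3 averaged 702 ± 6.43 CPM at 500 nM and 1064 ± 18.2 CPM with DMSO (log2 fold change -0.60 ± 0.04). CCT7 averaged 465 ± 6.07 CPM at 500 nM and 687 ± 29.6 CPM with DMSO (log2 fold change -0.56 ± 0.05). The adjusted p of the 6 subunits given as means were between 3.19e-14 and 4.62e-11.

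Each CCT ring holds 1 copy of every subunit, and the subunit transcripts were also compared per length, as CPM per kilobase of the longest GENCODE 29 transcript. CCT3 was the most abundant subunit in each group, with 327 ± 2.99 at 500 nM and 495 ± 8.46 CPM per kilobase with DMSO, and CCT5 the least, with 116 ± 3.33 at 500 nM and 162 ± 6.02 with DMSO (SD, n = 3 each). The ratio of the highest to the lowest subunit was 2.81 at 500 nM, 2.97 at 150 nM and 3.06 with DMSO. With DMSO the libraries of CCT6A, CCT2 and CCT7 overlapped on this scale. At 500 nM CCT7 lay above both, at 229 ± 2.99, with 205 ± 5.87 for CCT6A and 199 ± 4.12 for CCT2. The order of CCT6A and CCT2 depended on the transcript chosen. By the length of the APPRIS principal transcript CCT7 was at 243, CCT2 at 214 and CCT6A at 205.

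**Figure D4:**
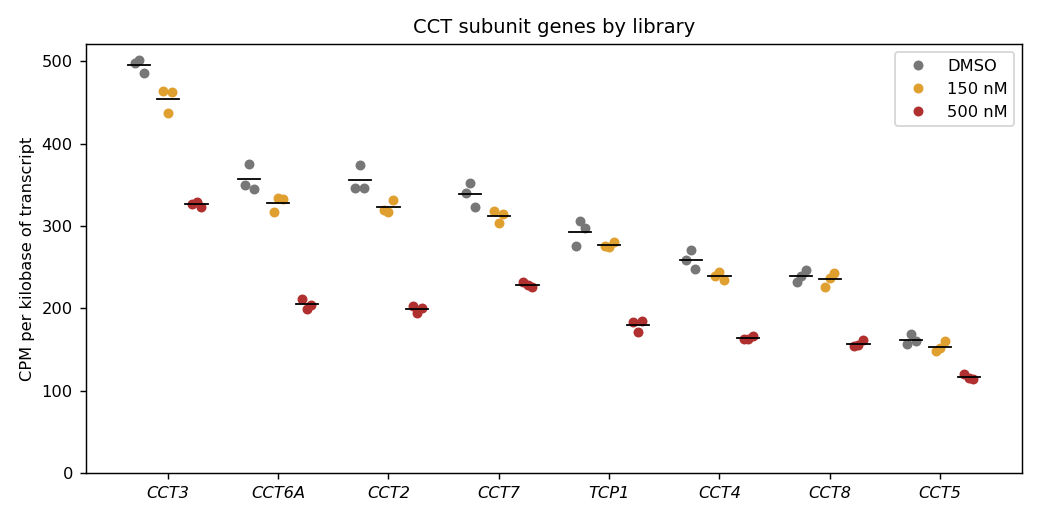
CPM per kilobase of transcript (y axis, from 0) of the 8 CCT subunit genes (x axis, ordered by their DMSO mean), with points for libraries and lines for group means. In every subunit the 500 nM libraries lie below all DMSO libraries, from 327 against 495 in CCT3 to 116 against 162 in CCT5.

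On the same per-kilobase scale, HSPA8 was the most abundant of the 36 genes in both groups, with 492 ± 10.3 at 500 nM and 1207 ± 22.8 with DMSO, followed by HSP90AB1 with 434 ± 6.44 at 500 nM and 923 ± 35.5 with DMSO, and HSPD1 with 403 ± 11.5 at 500 nM and 591.5 ± 17.4 with DMSO. The gaps between neighbours in this order exceeded their SDs in both groups. HSP90AA1 had 193 ± 3.93 at 500 nM and 365 ± 15.1 with DMSO, and HSPA9 had 194 ± 8.97 at 500 nM and 171 ± 4.91 with DMSO. These 2 genes did not differ beyond their spread at 500 nM, and by the length of the APPRIS principal transcript HSP90AA1 was at 201.

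The mitochondrial chaperones split into members that fell and members that rose. HSPD1 (HSP60), the wall of the matrix folding chamber, had 1019, 963 and 989.6 CPM at 500 nM, 1359, 1416 and 1446 CPM at 150 nM, and 1416, 1499.6 and 1441 CPM with DMSO. HSPE1 (HSP10), its lid, had 42.7, 40.3 and 53.1 CPM at 500 nM, 83.6, 100.4 and 81.9 CPM at 150 nM, and 88.9, 98.1 and 73.4 CPM with DMSO. TRAP1, the HSP90 of mitochondria, had 215, 213 and 204 CPM at 500 nM, against 296, 283 and 285 CPM with DMSO. In all 3 the libraries at 500 nM lay below all DMSO libraries, and the log2 fold changes were -0.55 ± 0.04, adjusted p = 3.51e-11, for HSPD1, -0.93 ± 0.12, adjusted p = 2.73e-05, for HSPE1 and -0.45 ± 0.05, adjusted p = 1.91e-08, for TRAP1. HSPA9 (mortalin), the matrix HSP70, had 965, 896 and 889 CPM at 500 nM, 782, 790.3 and 821 CPM at 150 nM, and 792, 833 and 794 CPM with DMSO. DNAJA3 (TID1), its J-protein, had 199.97, 215 and 195 CPM at 500 nM, 159, 154 and 156 CPM at 150 nM, and 164, 165 and 158 CPM with DMSO. Both were higher at 500 nM than in every DMSO library, by 0.19 ± 0.05, adjusted p = 0.00143, for HSPA9 and 0.33 ± 0.05, adjusted p = 6.88e-06, for DNAJA3. The matrix HSP70 and its J-protein were thus higher, and both genes of the folding chamber lower.

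HSPE1 and HSPD1 are transcribed head to head. RefSeq gives HSPD1 an additional start upstream of the one printed above. The promoter window of that start held no exact match to GAANNTTC or TTCNNGAA, and it shares 204 bases with the window of HSPE1. HSPE1 over HSPD1 was 0.0419, 0.0418 and 0.0536 at 500 nM and 0.0628, 0.0654 and 0.0510 with DMSO. These ratios overlapped, with a log2 difference of -0.39 and a two-sided exact permutation p of 0.2 (adjusted p = 0.2). In GENCODE 29 the genes share 281 exon bases on opposite strands, and 29.3% of the exon bases of TRAP1 overlap DNASE1 on the other strand, so reads there cannot be assigned with certainty.

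**Figure D5:**
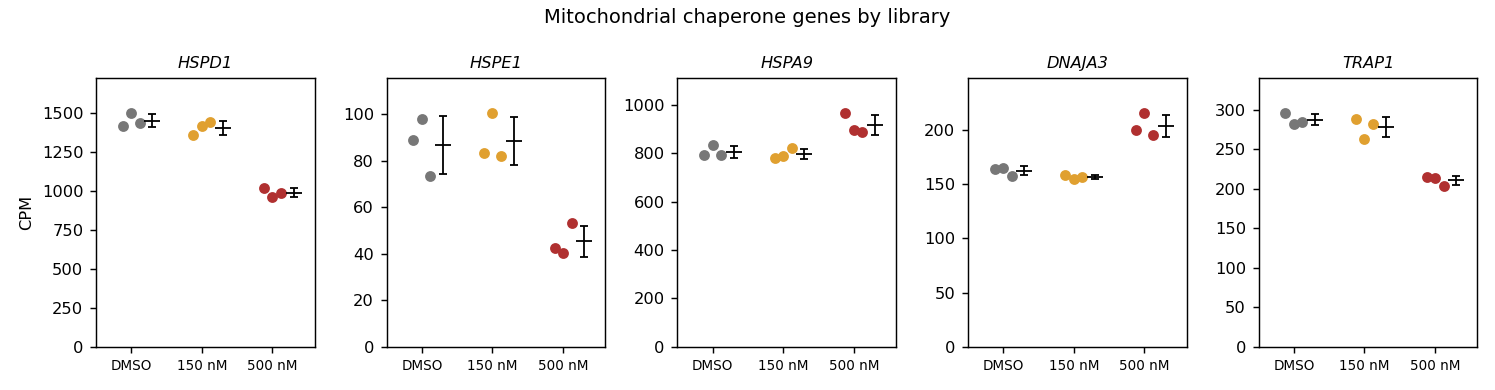
CPM (y axes, from 0) of the 5 mitochondrial chaperone genes in each library with DMSO, 150 nM and 500 nM JIB-04 (x axes), with points for libraries and bars for mean ± SD. HSPD1, HSPE1 and TRAP1 are lower and HSPA9 and DNAJA3 higher at 500 nM, while the 150 nM libraries overlap with DMSO in all 5 genes.

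At 150 nM no member passed edgeR's test against DMSO at an adjusted p under 0.05, where 0.954% of all genes were called higher and 0.318% lower. DESeq2 called 1 member, AHSA1 (-0.17, adjusted p = 0.0195), limma-voom called 2, HSPA8 (adjusted p = 0.0241) and HSP90AB1 (adjusted p = 0.0446), and 14 members (38.9%) had an unadjusted p under 0.05 in edgeR, as did 10.4% of all genes tested. Small differences mostly pointed down, since 29 of 36 members (80.6%) had a log2 fold change below 0, and 51% of all genes did. In 12 members the 150 nM libraries lay below all DMSO libraries, which held for 7.32% of all genes, and in 0 members above them, which held for 6.41%. The 12 included 5 of the 8 CCT genes (CCT2, CCT3, CCT4, CCT6A and CCT7), HSPA8, HSP90AB1, AHSA1, STIP1, BAG1, HSPA1A and HSPA1B. HSPA8 averaged 2654 ± 158 CPM at 150 nM and 2974 ± 56.1 CPM with DMSO (log2 fold change -0.16 ± 0.05, adjusted p = 0.0743). AHSA1 averaged 334 ± 11.3 CPM at 150 nM and 377 ± 2.31 CPM with DMSO (-0.17 ± 0.05, adjusted p = 0.069). HSP90AB1 averaged 2211 ± 105 CPM at 150 nM and 2468 ± 94.9 CPM with DMSO (-0.16 ± 0.05, adjusted p = 0.0918). These gaps were small beside those at 500 nM, and the median over the members was -0.07, with a median of all genes near 0. Without 150 nM replicate 1, HSP90AB1 was called lower (-0.20, adjusted p = 0.00842) and DNAJB4 higher (0.39, adjusted p = 0.0214), HSPA8 was called without 150 nM replicate 3 (-0.21, adjusted p = 0.0105), and HSP90AB1 without DMSO replicate 3 (-0.19, adjusted p = 0.0337).

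Set against 150 nM directly, 500 nM lowered 26 members and raised 5, against 22.8% and 23.7% of all genes, with a median log2 fold change of -0.42. With scaling by total counts 8 members were higher and 22 lower, and over all genes the split was 5255 higher and 2140 lower, against 3577 and 3444. HSPA8 fell by 1.13 ± 0.05 on the log2 scale (adjusted p = 1.91e-17) and HSP90AB1 fell by 0.93 ± 0.05 (adjusted p = 1.02e-15). DNAJA3 was higher by 0.38 ± 0.05 (adjusted p = 9.1e-07), DNAJB4 by 0.37 ± 0.10 (adjusted p = 0.00504) and HSPA9 by 0.20 ± 0.05 (adjusted p = 0.000792). Without 150 nM replicate 1, the DNAJB4 difference was 0.24 (adjusted p = 0.0542) and its call was lost. HSF1 was higher by 0.24 ± 0.07 (adjusted p = 0.00719), a call lost with the GC trend removed (0.02, adjusted p = 0.74). HSPA14 was higher by 0.14 ± 0.05 (adjusted p = 0.0261). Its call was lost without any 1 of the 500 nM libraries (adjusted p = 0.0928, 0.059 and 0.0519). The same held without 150 nM replicate 1 (0.0836), with no filter (0.0669) and with the length trend removed (0.0739). The comparisons of 500 nM with DMSO and with 150 nM share the 500 nM libraries.

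Of 94 further genes of the same pathways in 7 lists, 82 were tested, and at 500 nM 31 (37.8%) fell and 13 (15.9%) rose, where 25.6% and 26.3% of all genes tested did. None of the 82 passed edgeR's test at 150 nM, with 9 (11%) at an unadjusted p under 0.05, near the 10.4% of all genes tested. In the list of other HSP90 co-chaperones 9 of 18 genes fell and 2 rose, and the 9 include HSP90B2P, an HSP90 pseudogene and not a co-chaperone. FKBP5, an immunophilin of steroid receptor complexes, had 103, 111 and 101 CPM at 500 nM, against 170.1, 187 and 179.9 CPM with DMSO, the widest fall among them without overlap (log2 fold change -0.77 ± 0.06, adjusted p = 3.2e-12). CHORDC1 fell by 0.62 ± 0.07 on the log2 scale (adjusted p = 3.05e-08), while PIH1D1, of the R2TP complex, rose by 0.40 ± 0.07 (adjusted p = 3.62e-05). Of 10 partners of CCT, 6 fell and 1 rose. PFDN6, a subunit of prefoldin, which hands actin and tubulin to CCT, fell by 0.56 ± 0.07 (adjusted p = 1.12e-07), and PFDN5 fell by 0.37 ± 0.05 (adjusted p = 6.93e-07), while CCT6B, a relative of CCT6A known from testis, rose by 0.51 ± 0.15 (adjusted p = 0.00667).

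Of 18 other mitochondrial folding and protease genes 5 fell and 4 rose, which is near the shares over all genes tested. LONP1, the protease of the matrix, had 347, 354 and 333 CPM at 500 nM, 228, 209.9 and 211 CPM at 150 nM, and 219, 208 and 198 CPM with DMSO, and rose without overlap (log2 fold change 0.73 ± 0.05, adjusted p = 3.52e-12). GRPEL2 and GRPEL1 both encode exchange factors of HSPA9 and moved apart. GRPEL2 had 106, 105 and 107 CPM at 500 nM, against 64, 72.9 and 67.2 CPM with DMSO (log2 fold change 0.64 ± 0.07, adjusted p = 2.59e-08). GRPEL1 had 44.3, 40.5 and 43.3 CPM at 500 nM, against 58.6, 63.7 and 58.3 CPM with DMSO (-0.49 ± 0.07, adjusted p = 6.02e-07). Neither gene overlapped between the groups, and AFG3L2, of the inner membrane protease, fell by 0.39 ± 0.05 (adjusted p = 1.4e-07).

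Of 18 other J-proteins 7 fell and 1 rose, where 25.6% and 26.3% of all genes tested did. The gene that rose was DNAJB2, with 80.3, 83.6 and 73.3 CPM at 500 nM, against 44.4, 46.3 and 43.9 CPM with DMSO (log2 fold change 0.82 ± 0.07, adjusted p = 5.05e-11). DNAJA4 (-0.45 ± 0.10, adjusted p = 0.000561) and DNAJC17 (-0.40 ± 0.10, adjusted p = 0.000912) had the widest falls of that list. Of 9 other regulators of HSP70 3 fell and 2 rose, which is near the shares over all genes tested. ZFAND2A (AIRAP), known as a stress-inducible gene, rose by 0.72 ± 0.13 (adjusted p = 2.57e-05) and HSBP1, a binding protein of HSF1, fell by 0.39 ± 0.06 (adjusted p = 3.97e-06).

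Of 8 other HSP70 and small heat-shock genes 2 rose and 1 fell, where 26.3% and 25.6% of all genes tested did. HSF4 was the single other HSF gene tested. HSPA4L, of the HSP110 family, fell by 0.26 ± 0.06 (adjusted p = 0.00148). HSPA6, HSPB6, HSF4 and HSP90B2P, the 4 called genes of these lists that stay under 5 CPM, were named after their values were seen. HSPA6, an HSP70 known to be made almost only under stress, had 107, 63 and 72 counts at 500 nM, 5, 3 and 2 counts at 150 nM, and 6, 6 and 4 counts with DMSO, which is 1.78, 1.398 and 1.34 CPM at 500 nM, against 0.139, 0.220 and 0.0937 CPM with DMSO. The groups were far apart at a very low level (log2 fold change 3.36 ± 0.49, adjusted p = 1.24e-06), and how reads shared with HSPA1A, HSPA1B or other relatives were assigned was not tested. HSF4 had 3.998, 4.59 and 3.55 CPM at 500 nM, against 1.74, 0.843 and 1.64 CPM with DMSO (log2 fold change 1.48 ± 0.23, adjusted p = 3.76e-06). HSPB6 had 39, 15 and 34 counts at 500 nM and 11, 3 and 10 counts with DMSO (log2 fold change 1.38 ± 0.55, adjusted p = 0.0342). HSP90B2P had 1.81, 1.86 and 1.89 CPM at 500 nM, against 2.97, 2.82 and 2.86 CPM with DMSO, and fell without overlap (log2 fold change -0.64 ± 0.21, adjusted p = 0.0114).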

How the data were processed

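Per the labels' protocols, RNA was prepared from OCI-Ly1 cells with a column kit and depleted of ribosomal RNA. The authors deposited raw counts of reads per gene symbol in 1 table, with groups and replicate numbers taken from the sample titles. Tools named in the submitters' processing notes are featureCounts 1.4.6 and Subread, TopHat2 2.0.14 and Bowtie2 2.2.6, and the builds named are hg19 and mm10, with no role stated for either. No source used here gives the annotation or strand setting. Genes were filtered by edgeR's filterByExpr (minimum count 10, minimum total 15) and scaled by TMM, and a robust quasi-likelihood model was fitted to all 9 libraries with edgeR 4.0.16 in R 4.3.3. Adjusted p-values are Benjamini-Hochberg values over 15089 genes, with calls at 0.05, and CPM values use the TMM library sizes. The SE of a log2 fold change was taken from the test statistic. Ratios of 2 members were compared by exact permutation. Libraries of 1 group differed beyond counting noise (chi-square per degree of freedom 6.59 to 16.1). Alternatives used DESeq2 1.42.0, limma 3.58.1 (voom), other scaling and filters, GC and length trends from GENCODE 29 removed by a lowess fit (span 0.3), a replicate block, and each library left out. The model code was tested on simulated counts. All 36 members are named with values, and from each further pathway list at most the 2 called genes with the largest change in each direction and at least 5 CPM were named. The members and lists were chosen with earlier results of these data known. Promoter sequences are RefSeq's on GRCh38.p14, another build than that of the counting.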

Additional observations from a re-analysis of the deposited data

How the results depend on the processing

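At 500 nM against DMSO the members called higher and lower numbered 6 and 26, and across the alternatives between 4 and 7 and between 23 and 29. They were 7 and 23 with scaling by total counts, and 4 and 29 with the GC trend removed. Leaving out 1 library gave 5 to 6 higher and 25 to 27 lower at 500 nM against DMSO, 0 to 1 higher and 0 to 1 lower at 150 nM against DMSO, and 4 to 5 higher and 25 to 26 lower at 500 nM against 150 nM. At 150 nM DESeq2 called 1 member lower, limma-voom 2, the fit with the GC trend removed 3, and the fit with a replicate block 3. At 500 nM against 150 nM scaling by total counts called 8 members higher. It moved the class medians at 500 nM against DMSO to -0.61 for HSP70, HSP110 and HSP90, -0.086 for J-proteins, -0.50 for CCT and -0.31 for mitochondrial chaperones, with the median of all genes at 0.15. With the GC trend removed the medians were -0.71 for HSP70, HSP110 and HSP90 and -0.61 for CCT, and with the length trend removed -0.79 for HSP70, HSP110 and HSP90. Leaving out 1 library gave medians of -0.78 to -0.72 for HSP70, HSP110 and HSP90, -0.26 to -0.20 for J-proteins, -0.66 to -0.62 for CCT and -0.46 to -0.43 for mitochondrial chaperones, and log2 differences of 0.13 to 0.22 for HSP90AA1 over HSP90AB1, -0.50 to -0.32 for HSPE1 over HSPD1 and 0.12 to 0.20 for HSPH1 over HSPA4. Of the called differences of members, 1 changed direction, that of HSF1 at 500 nM against DMSO, at -0.022 (adjusted p = 0.736) with the GC trend removed. Differences that were not called crossed 0 as well, such as BAG2 at 150 nM (-0.06 to 0.02). The cause of these changes was not tested. Over all genes at 150 nM, 144 were higher and 48 lower, and 85 to 368 and 13 to 177 with 1 library left out, 82 and 19 with only the 6 libraries compared, 243 and 77 with no filter, 246 and 108 with the GC trend removed, and 209 and 99 with the replicate block, while DESeq2 called 76 lower.

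Libraries with the same replicate number correlated in their deviations from the group means by between -0.0525 and 0.104. Between 150 nM and DMSO these values were 0.104, 0.0126 and 0.0699, above the -0.0829 to 0.00814 of libraries with different numbers. In the comparisons with 500 nM the same-number values did not lie above the others. Whether the numbers mark libraries prepared together was not tested. A replicate block gave 6 members higher and 27 lower at 500 nM against DMSO, with HSPA1A called lower (adjusted p = 0.0337). The planned lengths from RefSeq Select transcripts were not run, because GENCODE 29 names none. APPRIS principal transcripts, chosen after seeing the data, left the ratio of the highest to the lowest CCT subunit with DMSO at 3.06. CCT3 and CCT5 have the same length under both choices, so the ratio of these genes could not change. BAG3, the least abundant member, has the widest standard error of its log2 fold change at 500 nM, 0.20.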
